A study of Mus musculus with 38 samples.

Results

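Cebpb and 8 further genes (Dclre1b, Slc25a33, Arrdc2, Polr3e, Kcnk5, Plk3, Noct and Il22ra1) were followed through the renal bulk RNA-Seq of 10 groups of mice or kidney slices given the bone hormone FGF23 or vehicle. The 9 genes were chosen by their measured response to FGF23 in mice with Adriamycin nephropathy, or by its difference from that in healthy mice. Their levels in that experiment are thus a description without a test. The question was whether these genes moved with FGF23 or with kidney disease in the other experiments. All 9 symbols were found once among the 55487 gene identifiers of the count table. After a filter on low counts, 9 of the 9 were among the 15859 genes tested in the anti-GBM experiment, 9 among the 16020 of the Adriamycin experiment and 8 among the 15090 of the slices, where Il22ra1 had 3 to 12 reads per culture and was left out.

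FGF23 is made by bone cells and acts on the kidney through FGF receptors and the co-receptor Klotho, where it lowers phosphate reabsorption and the synthesis of active vitamin D. Cebpb encodes C/EBP-beta, a leucine zipper transcription factor known for acute-phase, cytokine and macrophage genes, whose own mRNA is induced quickly by many stimuli. The 8 other genes do not belong to 1 pathway. Plk3 encodes a polo-like kinase of stress responses, Noct the rhythmically expressed phosphatase nocturnin, Arrdc2 an alpha-arrestin, Polr3e a subunit of RNA polymerase III and Dclre1b the nuclease Apollo of telomere and crosslink repair. Slc25a33 encodes a mitochondrial carrier of pyrimidine nucleotides, Kcnk5 the potassium channel TASK-2 of the proximal tubule and Il22ra1 a chain of the epithelial receptor for interleukin-22.

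In GRCm38, the build to which the reads were aligned, the GENCODE M21 annotation places the 9 protein-coding genes at 9 separate positions on 6 chromosomes. Cebpb (ENSMUSG00000056501) lies on the plus strand at chr2:167688915-167690418. Noct (ENSMUSG00000023087) lies on the plus strand at chr3:51224447-51251644, and Dclre1b (ENSMUSG00000027845) on the minus strand at chr3:103800605-103809444. Chromosome 4 holds Plk3 (ENSMUSG00000028680) on the minus strand at chr4:117128655-117133963, Il22ra1 (ENSMUSG00000037157) on the plus strand at chr4:135728172-135752140 and Slc25a33 (ENSMUSG00000028982) on the minus strand at chr4:149744036-149774277. Polr3e (ENSMUSG00000030880) lies on the plus strand at chr7:120917744-120947432, Arrdc2 (ENSMUSG00000002910) on the minus strand at chr8:70835129-70839720 and Kcnk5 (ENSMUSG00000023243) on the minus strand at chr14:20140057-20181809.

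Since 8 of the genes were picked for rising together, the 250 bases before their RefSeq start sites (GRCm38.p6) were searched on both strands for short motifs. The cyclic AMP response element half-site TGACG was present 3 times before Cebpb, 2 times before Plk3 and 1 time before Slc25a33, and in 17.9% of 27025 mouse promoters of the same length. At least 2 copies were present in 4.02% of promoters and at least 3 in 0.696%. The half-site and the B box named below were added after the sequences had been read. The full element TGACGTCA, which contains the half-site (1.62% of promoters), the AP-1 motif TGACTCA (4.43%) and the C/EBP motif TTGCNNAA (9.55%) were in 0 of the 9 windows, as was the glucocorticoid response element (0.0037%). The E-box CACGTG (6.05%) was present at bases -8 to -3 from the RefSeq start of Slc25a33, a stretch that GENCODE places inside the gene. A match describes letters in this window and not a site in use. The promoters of 3 genes are shown 5′ to 3′ on the strand of the gene, Cebpb and Plk3 for their repeated half-sites and Polr3e for the tRNA gene it holds. Capitals mark the motif matches, TGACG or its complement in Cebpb (chr2:167688665-167688914) and Plk3 (chr4:117133964-117134213), and the B box of RNA polymerase III in Polr3e (chr7:120917528-120917743), where the last 34 bases of the window were left off because GENCODE places them inside the gene.
Cebpb: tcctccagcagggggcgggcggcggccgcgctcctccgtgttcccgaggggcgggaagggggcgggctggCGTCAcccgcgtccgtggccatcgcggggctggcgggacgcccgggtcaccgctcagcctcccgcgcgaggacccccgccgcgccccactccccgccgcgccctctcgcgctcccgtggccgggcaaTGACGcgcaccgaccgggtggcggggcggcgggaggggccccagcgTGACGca
Plk3: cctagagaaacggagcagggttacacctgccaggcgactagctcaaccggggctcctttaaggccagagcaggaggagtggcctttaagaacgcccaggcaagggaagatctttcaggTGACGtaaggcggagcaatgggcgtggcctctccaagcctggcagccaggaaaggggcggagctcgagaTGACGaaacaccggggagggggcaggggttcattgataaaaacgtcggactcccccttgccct
Polr3e: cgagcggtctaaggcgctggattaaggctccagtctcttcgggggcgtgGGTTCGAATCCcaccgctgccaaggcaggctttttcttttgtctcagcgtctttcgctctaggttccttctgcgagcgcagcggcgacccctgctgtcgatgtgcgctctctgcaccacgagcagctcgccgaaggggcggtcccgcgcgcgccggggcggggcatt

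The Polr3e window began inside n-TLaag4, a leucine tRNA gene of 82 bases at chr7:120917517-120917598. The end of this tRNA gene lay 179 bases before the RefSeq start site of Polr3e, which lies inside the gene in GENCODE. The B box, a control element inside tRNA genes, was present in 0.111% of all promoters. So the gene of an RNA polymerase III subunit stands next to a gene that this polymerase transcribes. The libraries were made with an mRNA kit, and the level of the tRNA was not analysed here.

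The anti-GBM experiment held male C57BL/6JRj mice (C57BL/6 below) of 8 weeks: 4 healthy mice with vehicle, 3 healthy mice with FGF23, 4 mice with anti-GBM disease and vehicle and 3 with anti-GBM disease and FGF23. Anti-GBM disease was induced by sheep immunoglobulin in Freund's adjuvant and then a nephrotoxic serum against the glomerular basement membrane. Recombinant human FGF23 or its vehicle, buffered saline with albumin, was injected daily for 6 days, with kidney removal 24 h after the final injection. The Adriamycin experiment held female BALB/c mice of 8 weeks in 4 groups of 4: healthy or with Adriamycin nephropathy (1 injection of the podocyte toxin doxorubicin), each with 1 injection of vehicle or FGF23 and killed 24 h later. The slice experiment held 4 cultures with vehicle and 4 with FGF23 of precision-cut kidney slices (PCKS). The slices came from male DBA/2J mice fed adenine, which causes a crystal nephropathy. The diet began at 8 weeks of age and lasted for weeks before the slices were cut. The labels give 1 h of treatment for the slices where the study's text gives 24 h, and no slices of healthy mice were made. Each mouse sample was 1 fragment of kidney. The anti-GBM and Adriamycin experiments differ together in strain, sex, disease and number of doses. The slices differ from both in strain, age at kidney removal, disease and its duration, culture outside the animal and the way FGF23 was given. These differences cannot be told apart in any comparison between experiments.

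The sum of gene counts ranged from 13704248 to 23630210 over the anti-GBM libraries. For the Adriamycin libraries it ranged from 15665050 to 27583911, and for the slice cultures from 11186925 to 16254987. Levels are CPM (read counts relative to library size) scaled by TMM within an experiment, and levels of different experiments were scaled separately. Tubular markers were present in every group, with 5 of 5 proximal tubule markers detected and a summed level of 5488 to 12795 CPM in kidneys of C57BL/6 mice. That sum was 246 to 599 CPM in the slices. Anti-GBM mouse NTS16, given FGF23, stood apart from mice NTS13 and NTS14 of its group in the levels below, and the counts of genes called and the list and correlation values of FGF23 in anti-GBM disease are given with and without it. In bulk tissue, fewer cells of a type and less RNA per cell cannot be told apart.

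In Adriamycin nephropathy, where the genes were picked, FGF23 went with a higher level of 8 genes and a lower level of Il22ra1. Cebpb stood at 13.9, 10.7, 13.1 and 14.2 CPM with vehicle and at 30.5, 44.2, 39.9 and 27.5 CPM with FGF23, a log2 fold change of 1.46 ± 0.18 (SE). Noct stood at 21.1, 18.1, 30.1 and 14.1 CPM with vehicle and at 41.6, 64.2, 63.5 and 53.7 CPM with FGF23 (1.41 ± 0.29). The 2 groups did not overlap for 7 of the 8 genes with a higher level nor for Il22ra1, against 1.65% of 16020 genes higher and 1.77% lower without overlap. Since the same contrast chose the genes, these shares say nothing further about them. Plk3 was the gene whose groups overlapped, with 17.4 to 32.3 CPM with vehicle and 30.4 to 48.7 CPM with FGF23 (0.85 ± 0.18).

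In the same diseased mice, Dclre1b differed by a log2 fold change of 0.56 ± 0.07, Slc25a33 by 0.64 ± 0.09 and Polr3e by 0.89 ± 0.14. The value was 0.94 ± 0.14 for Arrdc2, 0.95 ± 0.15 for Kcnk5 and -0.78 ± 0.18 for Il22ra1. Polr3e, for example, stood at 64.3 to 87.8 CPM with vehicle and at 96.8 to 158.6 CPM with FGF23. Il22ra1 was low in all 16 libraries of the experiment, with 2.57, 2.11, 2.32 and 3.28 CPM with vehicle and 1.09, 1.89, 1.29 and 1.67 CPM with FGF23. The latter values rest on 21 to 43 reads per library.

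In healthy BALB/c mice of the same experiment, the values with and without FGF23 lay close to each other for most of the genes. A choice by the difference between diseased and healthy mice uses these values too, so they are not an independent observation. Cebpb stood at 14.98, 9.53, 13.2 and 11.2 CPM with vehicle and at 15.6, 11.5, 9.60 and 13.6 CPM with FGF23 (log2 fold change 0.04 ± 0.18). Dclre1b, Slc25a33, Arrdc2, Polr3e and Kcnk5 had fold changes of -0.10 to 0.10 with SEs of 0.08 to 0.15. The fold change was -0.44 ± 0.18 for Plk3 and -0.58 ± 0.29 for Noct. Il22ra1 was the gene whose healthy groups did not overlap (1.61% of genes higher without overlap), with 1.86 to 2.51 CPM with vehicle and 2.86 to 3.37 CPM with FGF23 (0.53 ± 0.17). Its values thus lay higher with FGF23 in healthy kidney and lower in Adriamycin kidney, and both enter the choice of the gene.

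Adriamycin itself, compared between the vehicle groups, left Cebpb at a log2 fold change of 0.08 ± 0.18 relative to healthy mice. The groups with vehicle overlapped for the 9 genes, with the values farthest from 0 in Noct (-0.66 ± 0.29), Plk3 (-0.55 ± 0.18) and Polr3e (0.38 ± 0.14). Between the FGF23 groups, the 8 genes were higher in Adriamycin than in healthy mice and Il22ra1 was lower without overlap (3.06% of genes higher, 2.97% lower). Those contrasts share libraries with the one that chose the genes. The plot of the 38 libraries shows the 9 genes across the 10 groups.

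**Figure D1:**
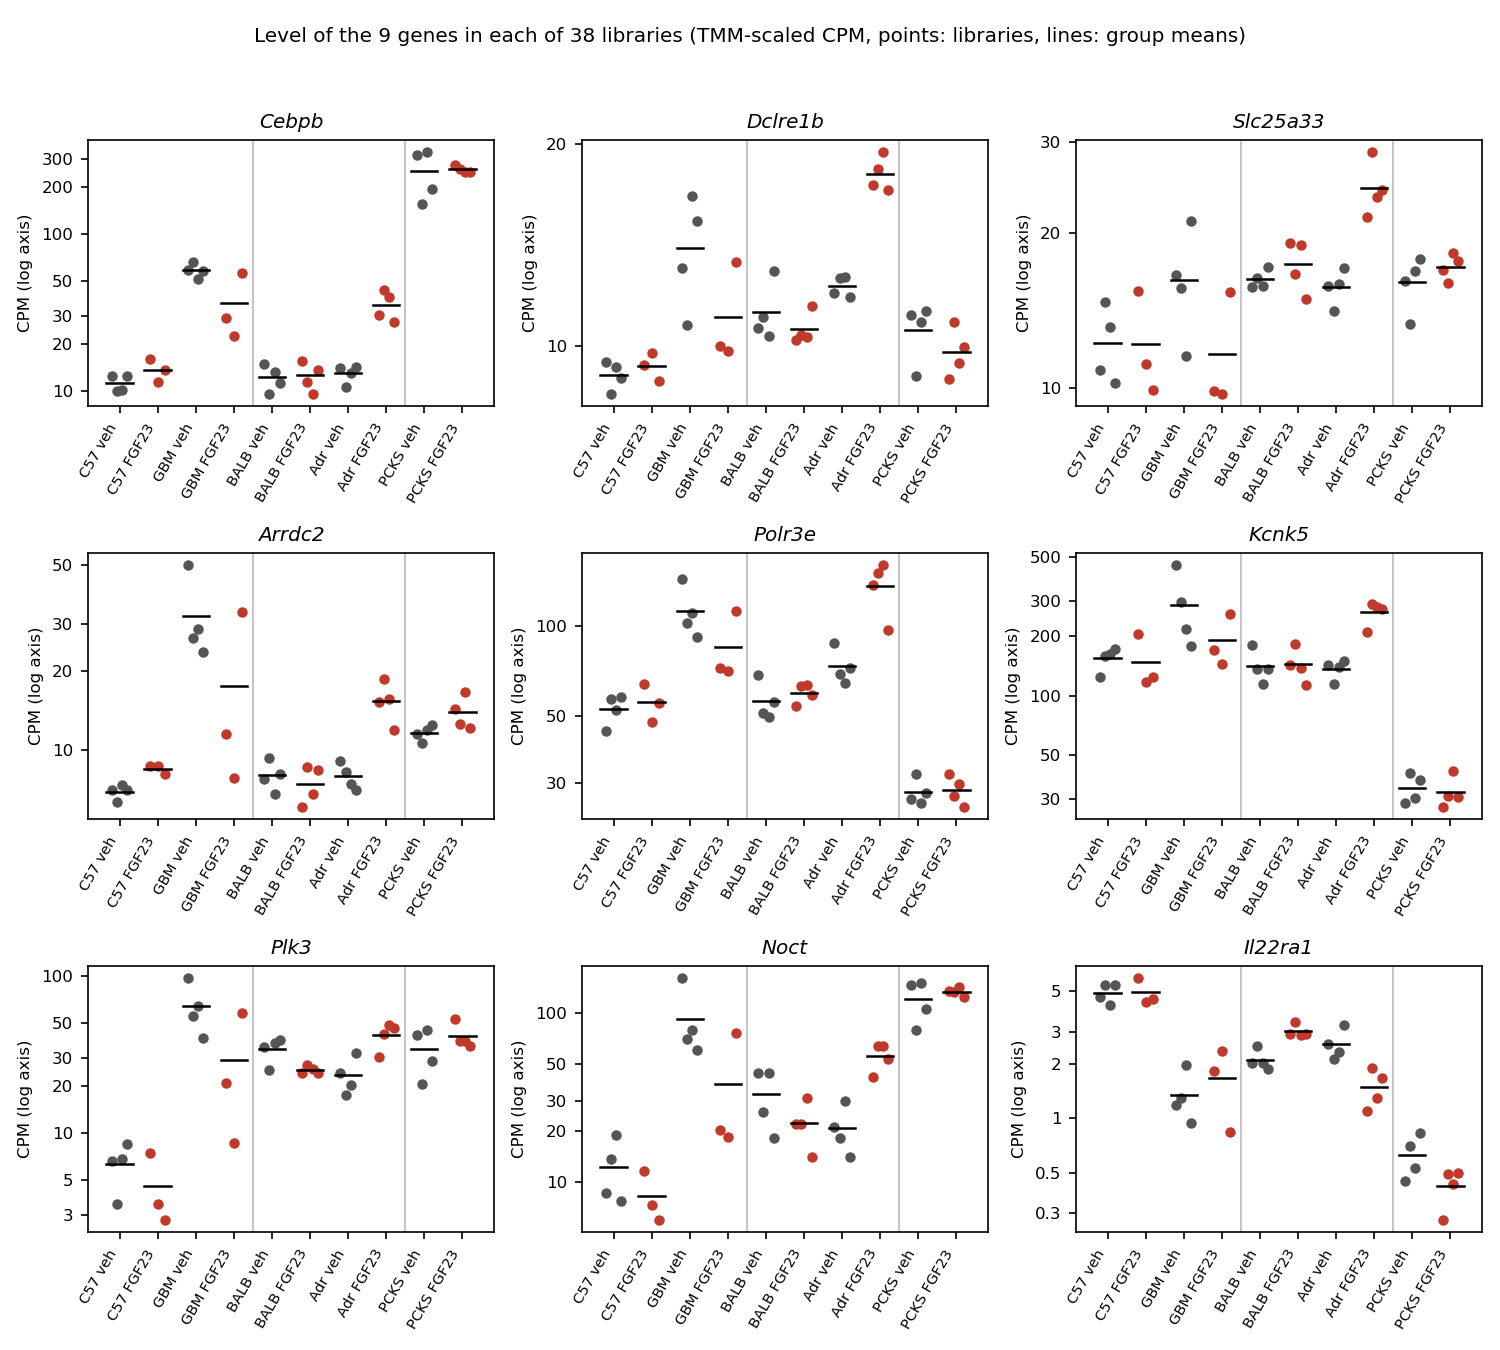
Level of each gene in each library, in TMM-scaled CPM on a log axis, with lines at group means, gray points for vehicle and red points for FGF23. C57 and BALB are healthy C57BL/6 and BALB/c mice, GBM is anti-GBM disease, Adr is Adriamycin nephropathy and PCKS are slices, with gray lines between the separately scaled experiments. In Cebpb the 4 anti-GBM vehicle mice sit at 51.9 to 66.6 CPM and the 3 anti-GBM FGF23 mice at 22.5 to 56.8 CPM.

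The 6-day FGF23 course in anti-GBM disease was the nearest counterpart to the Adriamycin comparison in these data. There, 0 of the 9 genes passed the test at an adjusted p below 0.05 (edgeR's quasi-likelihood test, Benjamini-Hochberg over 15859 genes, of which 0.24% passed). Of the 9 genes, 8 had log2 fold changes below 0, where 50.3% of all tested genes were below 0, and thus opposite in sign to the Adriamycin values for the 8 genes picked for a higher level. At an unadjusted p below 0.05, 6 of the 9 were lower (Cebpb, Dclre1b, Arrdc2, Polr3e, Plk3 and Noct) and 0 higher, where 6.17% of tested genes were lower. These counts come from the same mice, in which the 8 genes other than Il22ra1 mostly varied together (below). The genes are therefore not separate observations. The 2 groups overlapped for each of the 9 genes. DESeq2 as the other tool also called 0 of the 9.

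Cebpb stood at 59.2, 66.6, 51.9 and 57.9 CPM in anti-GBM mice with vehicle and at 29.02, 22.5 and 56.8 CPM with FGF23. Mice NTS13 and NTS14 lay below the range with vehicle and NTS16 inside it. The log2 fold change was -0.70 ± 0.23 (adjusted p = 0.319). Plk3 stood at 96.6, 55.6, 63.8 and 40.4 CPM with vehicle and at 20.8, 8.71 and 57.8 CPM with FGF23 (-1.14 ± 0.49, adjusted p = 0.378). Noct stood at 161.2, 70.7, 79.2 and 60.4 CPM with vehicle and at 20.2, 18.5 and 76.2 CPM with FGF23 (-1.28 ± 0.49, adjusted p = 0.345). In both genes NTS16 lay within the range of the vehicle mice and the 2 other mice below it.

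Arrdc2 stood at 49.9, 26.4, 28.8 and 23.5 CPM with vehicle and at 11.6, 7.86 and 33.2 CPM with FGF23 (-0.88 ± 0.37, adjusted p = 0.369). Polr3e stood at 143, 101.8, 109.7 and 91.6 CPM with vehicle and at 72.5, 70.6 and 111.6 CPM with FGF23 (-0.39 ± 0.18, adjusted p = 0.385). The same 2 mice were again below the vehicle range and NTS16 was inside it. Dclre1b (-0.34 ± 0.15), Slc25a33 (-0.47 ± 0.22) and Kcnk5 (-0.58 ± 0.30) had adjusted p-values of 0.378, 0.399 and 0.420. Il22ra1 stood at 1.18, 1.29, 1.95 and 0.936 CPM with vehicle and at 1.83, 2.35 and 0.842 CPM with FGF23 (0.31 ± 0.31, adjusted p = 0.688), from 13 to 47 reads per library. Among the 7 diseased mice NTS14 was the highest and NTS16 the lowest.

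**Figure D2:**
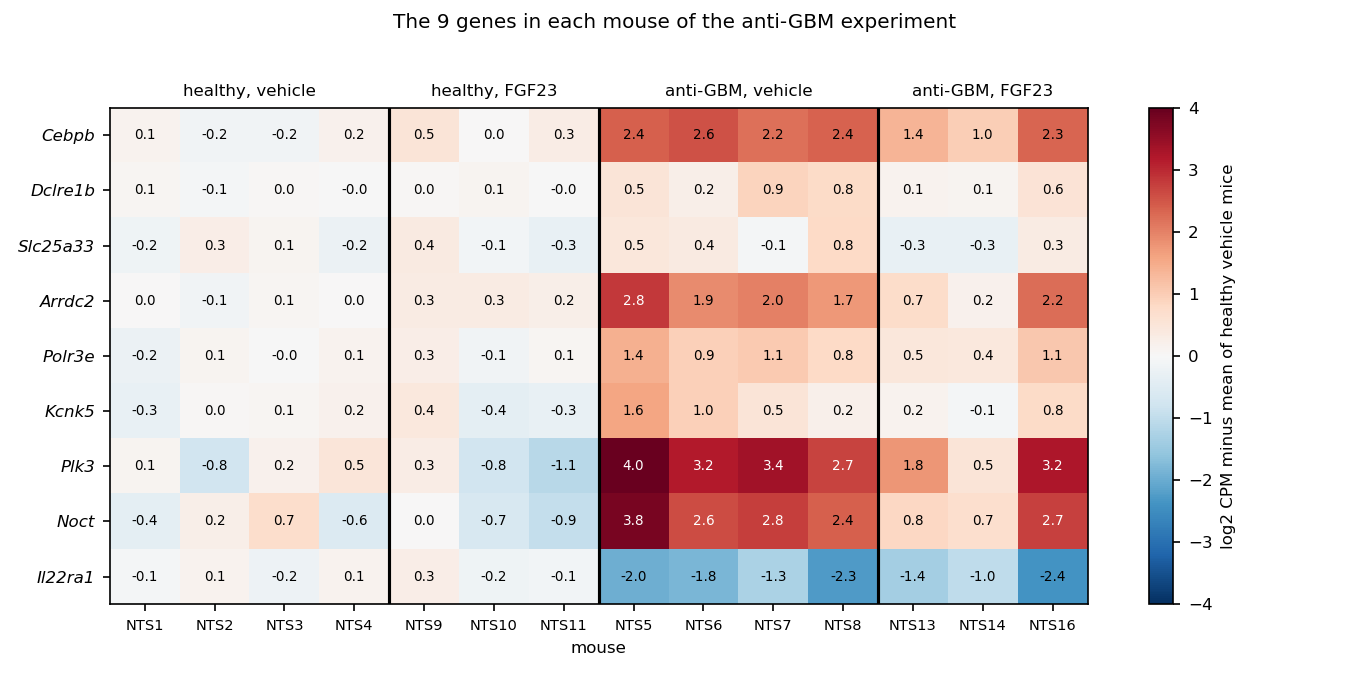
Each cell gives the log2 CPM of a gene (rows) in a mouse (columns) of the anti-GBM experiment minus the mean of the 4 healthy vehicle mice, red for higher and blue for lower. Mouse NTS16 (Plk3 57.8 CPM, Noct 76.2 CPM) has colours like the 4 anti-GBM vehicle mice, and NTS13 and NTS14 lie between these and the healthy mice.

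Without NTS16, 2 of the 9 genes passed the test, where 0.304% of 16115 genes passed, and 8 of the 9 were lower at an unadjusted p below 0.05, where 8.17% of genes were. Cebpb was then lower with FGF23 at a log2 fold change of -1.19 (adjusted p = 0.00434) and Arrdc2 at -1.73 (adjusted p = 0.0135). Plk3 (-2.12) and Noct (-2.26) had adjusted p-values of 0.0833 and 0.0524. The median over the 8 genes other than Il22ra1 of the log2 level relative to healthy vehicle mice was 1.27 to 1.98 in the 4 anti-GBM vehicle mice. It was 0.59 in NTS13, 0.29 in NTS14 and 1.66 in NTS16. No label sets NTS16 apart, so all 3 mice stay in the comparison, and with 3 mice the size of the difference is uncertain. NTS16 was singled out by its levels of these same genes, and without it the FGF23 group in disease is NTS13 and NTS14. The p-values without NTS16, here and below, are therefore a description of its weight and not a test. Leaving out any other library called none of the 9.

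Whether the FGF23 difference depended on disease was asked of the 14 mice with an interaction term. Again 0 of the 9 genes passed, against 0.0315% of all tested genes, and 2 of the 9 were lower at an unadjusted p below 0.05, against 2.8%. These were Cebpb (-0.98 ± 0.34, adjusted p = 0.4999) and Arrdc2 (-1.17 ± 0.54, adjusted p = 0.5998). Without NTS16, 1 of the 9 passed, Cebpb at -1.47 (adjusted p = 0.0198), against 0.0869% of genes. Leaving out any other library called none of the 9 here too.

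In healthy C57BL/6 mice, 6 days of FGF23 left 0 of the 9 genes past the test, and 0% of all genes passed with edgeR or with DESeq2, while 689 genes had an unadjusted p below 0.05. Cebpb stood at 12.5, 10.1, 10.1 and 12.5 CPM with vehicle and at 15.9, 11.3 and 13.7 CPM with FGF23 (0.28 ± 0.25, adjusted p = 0.996). Arrdc2 was the gene whose 2 groups did not overlap (2.3% of genes higher without overlap), with 7.07, 6.37, 7.44 and 7.09 CPM with vehicle and 8.73, 8.75 and 8.15 CPM with FGF23. Its log2 fold change of 0.29 had an SE of 0.40. Plk3 (-0.42 ± 0.58) and Noct (-0.56 ± 0.53) had values below 0 and the widest errors of the 9. The plot of the FGF23 differences sets the 5 settings side by side.

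**Figure D3:**
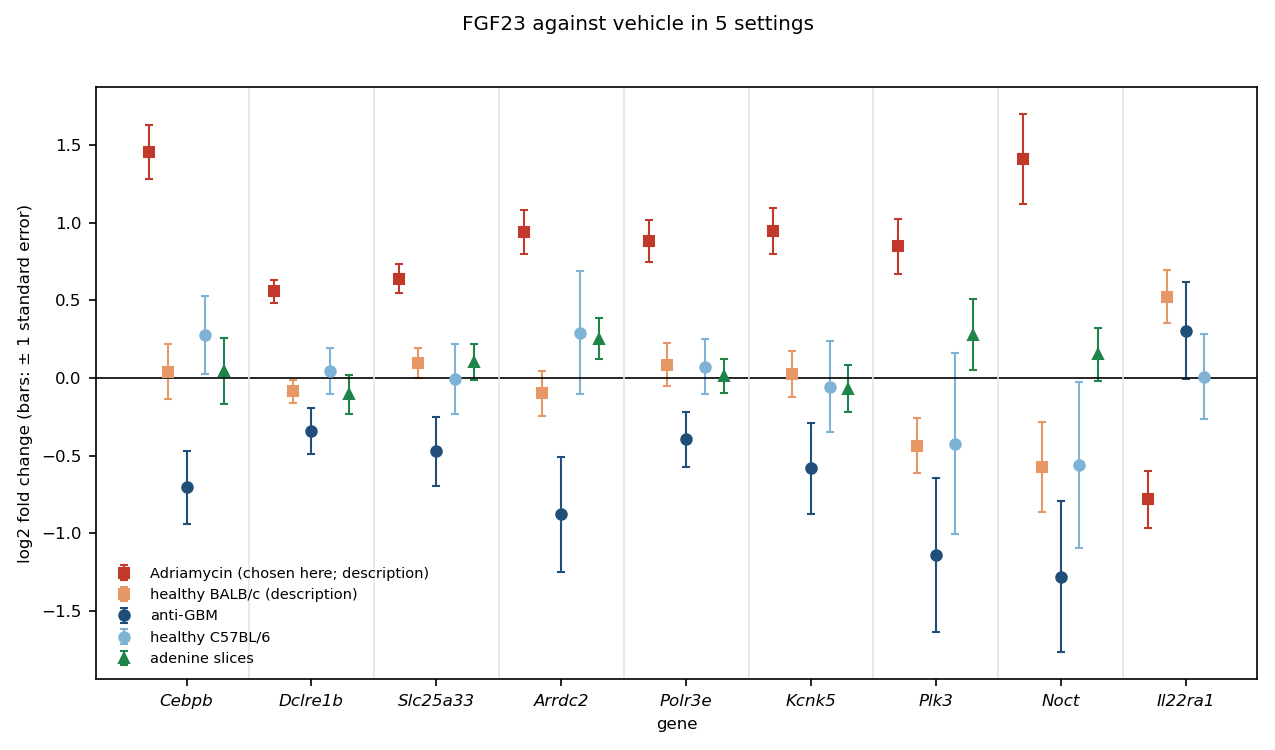
Log2 fold change of FGF23 against vehicle for each gene, with bars of 1 standard error, in the Adriamycin experiment (squares), the anti-GBM experiment (circles) and the slices (triangles, without Il22ra1). Cebpb is at 1.46 in Adriamycin nephropathy, where the genes were chosen, at -0.70 in anti-GBM disease and at 0.05 in slices.

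In adenine slices, 0 of the 8 genes tested passed, and 0% of the 15090 genes did with edgeR, where 738 had an unadjusted p below 0.05 and DESeq2 called 3. Cebpb stood at 320.1, 155, 332 and 192 CPM with vehicle and at 276, 258, 247 and 249.7 CPM with FGF23 (0.05 ± 0.21, adjusted p = 0.971). The 4 vehicle cultures spread more than the 4 FGF23 cultures, with cultures 2 and 4 the lower ones. Noct showed the same order, with 146, 79.8, 149.9 and 106 CPM with vehicle and 135, 134, 142 and 125 CPM with FGF23 (0.15 ± 0.17, adjusted p = 0.885). So did Plk3, with 42.3, 20.6, 44.9 and 28.9 CPM with vehicle and 53.0, 38.2, 38.5 and 35.7 CPM with FGF23 (0.28 ± 0.23, adjusted p = 0.860).

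The largest difference from 0 after Plk3 was in Arrdc2 (0.25 ± 0.13, adjusted p = 0.849), with 10.7 to 12.5 CPM with vehicle and 12.1 to 16.6 CPM with FGF23. Dclre1b, Slc25a33, Polr3e and Kcnk5 had log2 fold changes of -0.11 to 0.10. Il22ra1 had 0.273 to 0.832 CPM in the 8 cultures.

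Anti-GBM disease went with changed levels of 8 of the 9 genes in C57BL/6 kidney. Between the vehicle groups, 7 of the 9 were higher in anti-GBM than in healthy mice at an adjusted p below 0.05, where 19.4% of the 15859 genes were higher, and Il22ra1 was lower, where 20.4% were lower. The 8 genes called had groups without overlap, where 17% of tested genes were higher and 18.3% lower without overlap. Slc25a33 was not called (0.40 ± 0.21, adjusted p = 0.139). The vehicle-treated anti-GBM mice enter both this comparison and the one of FGF23 in anti-GBM disease, so the 2 are not independent and their opposite signs are not read as a result.

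The transcription factor Cebpb rose by a log2 fold change of 2.39 ± 0.23 (adjusted p = 8.46e-06), from 10.1 to 12.5 CPM in healthy mice to 51.9 to 66.6 CPM. The stress kinase Plk3 rose by 3.34 ± 0.51 (adjusted p = 0.000234), from 3.52 to 8.55 CPM to 40.4 to 96.6 CPM. Nocturnin rose by 2.92 ± 0.48 (adjusted p = 0.000397), with 8.66, 13.6, 18.9 and 7.75 CPM in healthy mice. Arrdc2 rose by 2.21 ± 0.36 (adjusted p = 0.000406), from 6.37 to 7.44 CPM to 23.5 to 49.9 CPM. In Plk3, Noct and Arrdc2, NTS5 was the highest of the diseased mice.

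Polr3e, Kcnk5, Dclre1b and Il22ra1 were the other genes called. Polr3e rose by 1.07 ± 0.17 (adjusted p = 0.000266), from 44.7 to 58.0 CPM in healthy mice to 91.6 to 143 CPM. The channel gene Kcnk5 rose by 0.89 ± 0.27 (adjusted p = 0.0184), with 124 to 173 CPM in healthy and 177 to 456 CPM in diseased mice. Dclre1b rose by 0.63 ± 0.14 (adjusted p = 0.00276), from 8.46 to 9.45 CPM to 10.7 to 16.7 CPM. Il22ra1 fell by 1.86 on the log2 scale (SE 0.28, adjusted p = 0.000222), with 4.64, 5.42, 4.19 and 5.43 CPM in healthy and 0.936 to 1.95 CPM in diseased mice.

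Between the FGF23 groups, 5 of the 9 passed. Cebpb (1.40 ± 0.26, adjusted p = 0.00144), Plk3 (2.62 ± 0.59, adjusted p = 0.00498), Noct (2.196 ± 0.56, adjusted p = 0.00985) and Polr3e (0.61 ± 0.19, adjusted p = 0.0293) were higher in anti-GBM mice, where 14.5% of genes were higher. Il22ra1 was lower (-1.56 ± 0.31, adjusted p = 0.00233), where 12.7% were lower. Arrdc2 (1.03 ± 0.41, adjusted p = 0.0759), Dclre1b, Kcnk5 and Slc25a33 were not called. Without NTS16, 3 of the 9 passed (Cebpb, Plk3 and Il22ra1), with Cebpb at 0.92 and Plk3 at 1.65, where 12.7% of 16115 genes were higher and 10.4% lower. The difference between the 2 disease contrasts is the interaction given above, and it was not called for any of the 9.

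**Figure D4:**
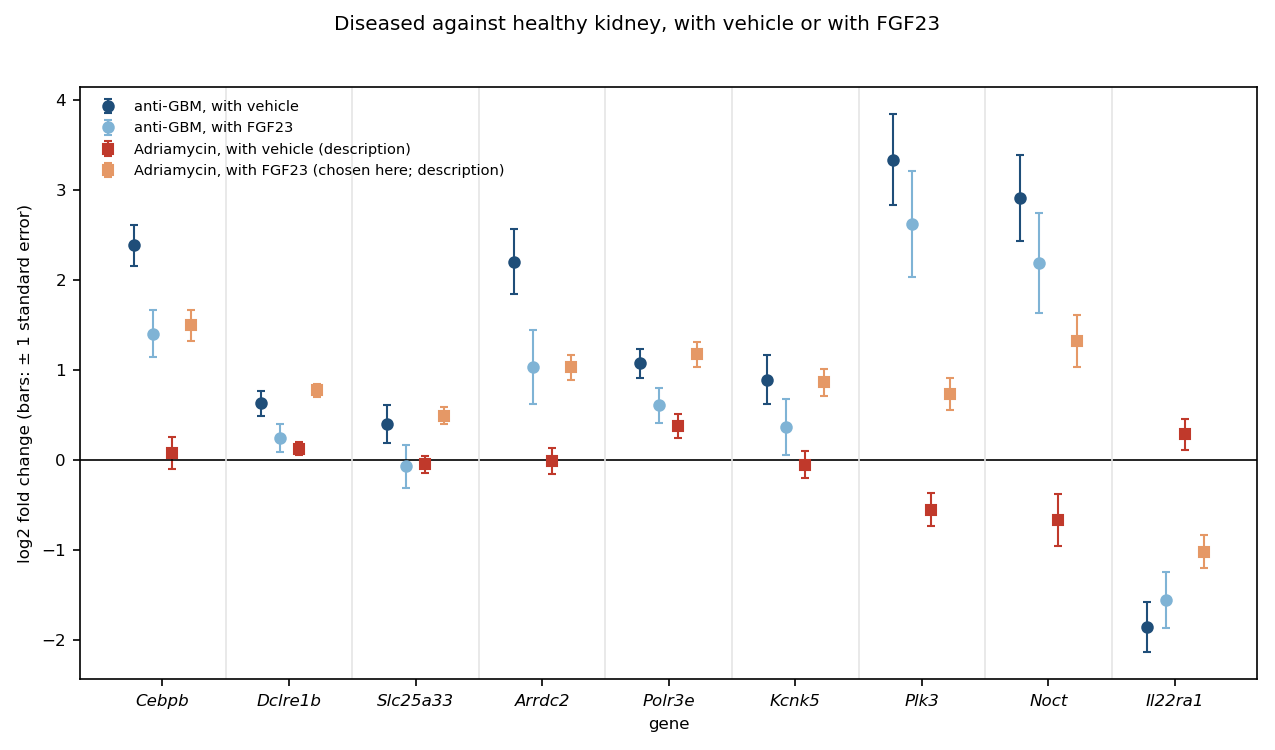
Log2 fold change of diseased against healthy kidney for each gene, with bars of 1 standard error, in anti-GBM mice (circles) and Adriamycin mice (squares), with vehicle or FGF23. With vehicle, Plk3 is at 3.34 in anti-GBM disease and at -0.55 in Adriamycin nephropathy, and Il22ra1 at -1.86 and 0.29.

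Marker genes of other cells moved with anti-GBM disease too. The summed level of 5 of 5 leukocyte markers was 46.5 to 58.4 CPM in healthy vehicle mice, 86.6 to 148 CPM in anti-GBM vehicle mice and 153 to 174 CPM in anti-GBM FGF23 mice, and that of 6 of 6 macrophage markers was 96.8 to 118 CPM, 234 to 342 CPM and 296 to 321 CPM. Neutrophil markers summed to 1.24 to 2.12 CPM in healthy mice, 9.01 to 18.2 CPM with vehicle in disease and 5.99 to 9.16 CPM with FGF23, with 1 of 5 at 0 in the first and last of these groups. The 5 proximal tubule markers summed to 9752 to 12795 CPM, 6624 to 10915 CPM and 5488 to 7751 CPM. The part of these cells in the 9 genes' levels was not tested. In Adriamycin mice the leukocyte sum was 35.6 to 44.0 CPM with vehicle (median 39.7) and 28.1 to 40.2 CPM with FGF23 (median 30.7), so that the groups overlapped. The neutrophil sum was 2.01 to 3.31 CPM with vehicle and 0.792 to 1.74 CPM with FGF23, without overlap, where healthy BALB/c mice had 1.48 to 1.94 CPM and 1.24 to 3.49 CPM. T cell markers summed to 1.22 to 1.64 CPM with vehicle and 0.519 to 1.99 CPM with FGF23 in Adriamycin mice. The part of these cells in the Adriamycin values of the 9 genes was not tested either.

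Relatives of the 9 genes were read from lists by family, with each list including its member. In anti-GBM against healthy kidney with vehicle, where 19.4% of all tested genes rose and 20.4% fell, 3 of the 6 C/EBP genes tested rose and 0 fell. The counts of the other families below stand against the same shares. Cebpd, the paralogue that answers acute stimuli with Cebpb, rose by 3.33 ± 0.31 (adjusted p = 6.87e-06), from 2.23 to 4.53 CPM to 27.3 to 45.5 CPM. The stress factor Ddit3 rose by 0.75 ± 0.19 (adjusted p = 0.00656). Cebpa, the factor of differentiated epithelium and liver, was at -0.01 ± 0.12 and Cebpg at -0.02 ± 0.08, and neither was called. In Adriamycin nephropathy Cebpd stood at 17.5 to 27.9 CPM with vehicle and 25.8 to 36.5 CPM with FGF23, and Cebpa at 74.8 to 92.8 CPM and 66.5 to 87.2 CPM, so that the groups overlapped in both.

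Of 13 RNA polymerase III subunits, 2 rose with anti-GBM disease and 2 fell. Polr3d, which pairs with Polr3e within the enzyme, rose by 0.94 ± 0.18 (adjusted p = 0.00114), and the other member that rose was Polr3e. Polr3g fell by 0.59 on the log2 scale (SE 0.13, adjusted p = 0.0024) and Polr3k by 0.35 (SE 0.09, adjusted p = 0.00849), and the median of the 13 was -0.14. Polr3d stood at 13.1 to 16.2 CPM in Adriamycin mice with vehicle and at 18.6 to 24.8 CPM with FGF23. Polr1d stood at 25.3 to 29.6 CPM and 30.2 to 31.2 CPM. Neither overlapped, where 1.65% of genes were higher without overlap. Polr3e, which did not overlap either, was chosen in these mice, and the groups overlapped for the remaining subunits. With FGF23 in anti-GBM disease Polr3d was at -0.43 ± 0.19 (adjusted p = 0.379), and without NTS16 at -0.52 ± 0.22 (adjusted p = 0.293). Of the 11 factors that work with the polymerase, 0 rose and 2 fell, Bdp1 (-0.42 ± 0.15) and Gtf3c3 (-0.53 ± 0.09).

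Of 5 polo-like kinases, Plk3 and the mitotic kinase Plk1 (2.16 ± 0.47, adjusted p = 0.00256) rose and Plk2 fell (-0.41 ± 0.15, adjusted p = 0.0428). Of 5 alpha-arrestins tested, Arrdc2 rose and Arrdc3 fell (-0.54 ± 0.19, adjusted p = 0.0374). Of 5 two-pore potassium channels tested, Kcnk5, Kcnk1 (1.07 ± 0.34) and Kcnk6 (1.07 ± 0.20) rose. Of 6 genes of the nocturnin family, Noct rose and 4 fell, with the deadenylases Cnot6l (-0.65 ± 0.09) and Cnot6 (-0.45 ± 0.11) the clearest by p. Of 10 genes of SNM1 nucleases and telomere proteins, Dclre1b rose while Dclre1a (-0.40 ± 0.12) and Pot1a (-0.31 ± 0.11) fell.

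Of 9 mitochondrial nucleotide carriers, Slc25a24 (1.78 ± 0.18) and Slc25a25 (1.78 ± 0.37), which carry ATP-Mg and phosphate, rose and Slc25a36 (-0.85 ± 0.09) and Slc25a42 (-0.50 ± 0.13) fell, with Slc25a33 not called. Of 5 receptor chains of the interleukin-10 family tested, Il10ra (1.29 ± 0.24) and Il20rb (1.41 ± 0.35) rose and Il22ra1 fell. Il10rb, which pairs with Il22ra1 to bind interleukin-22, was at 0.09 ± 0.09. Of the 5 genes tested in a list of that receptor's signalling, Il10rb among them, Stat3 (1.06 ± 0.12) and the feedback inhibitor Socs3 (4.02 ± 0.47) rose. The ligand gene Il22 stood at 0 CPM in the anti-GBM mice with vehicle or FGF23. A link of the 2 rises to interleukin-22 was not tested. With FGF23 against vehicle in anti-GBM disease, in healthy C57BL/6 mice and in slices, 0 genes of these families were called. Without NTS16, Cebpb and Arrdc2 were the genes of these families called for FGF23 in anti-GBM disease.

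**Figure D5:**
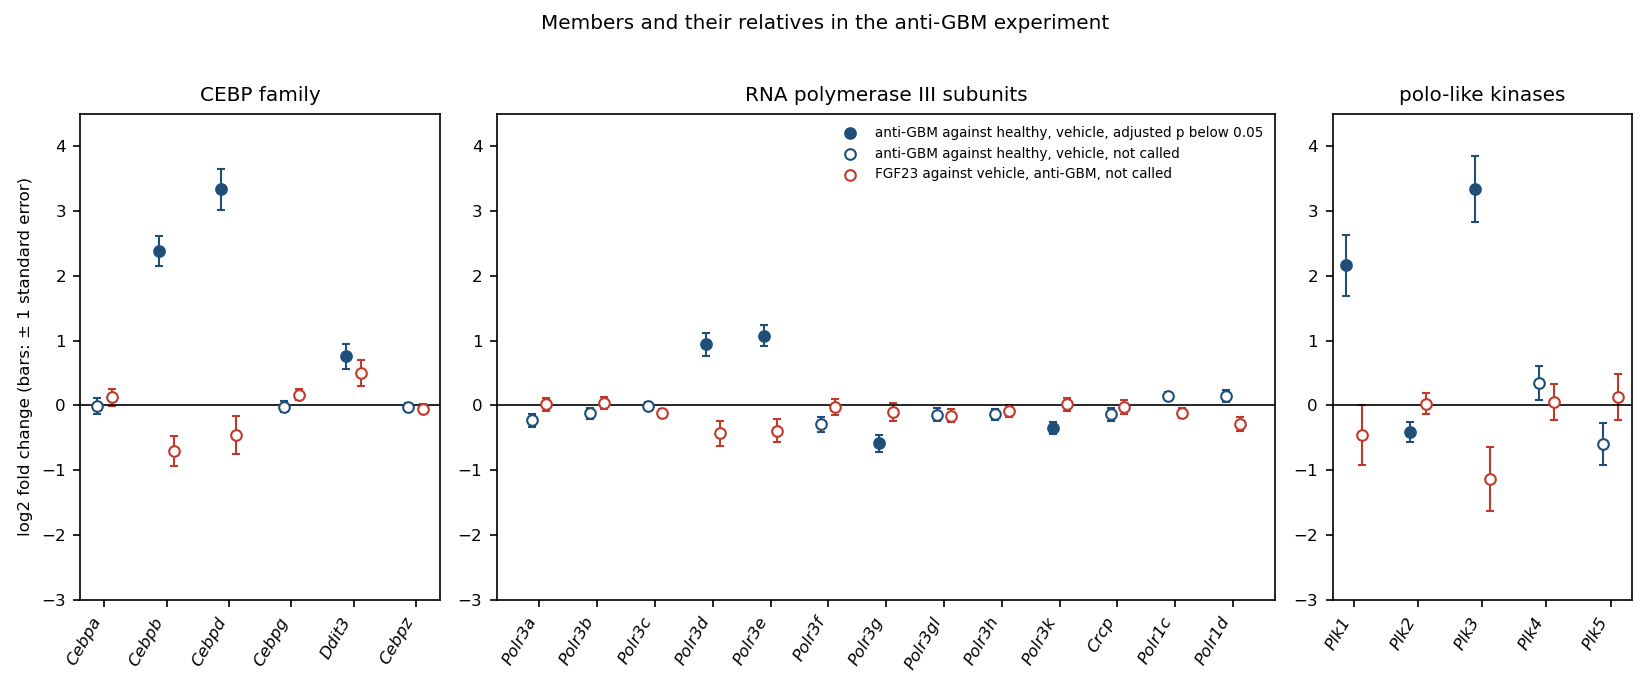
Log2 fold changes with bars of 1 standard error for the tested C/EBP genes, RNA polymerase III subunits and polo-like kinases in the anti-GBM experiment, blue for disease with vehicle and red for FGF23 in disease. Filled points passed the test: Cebpb (2.39), Cebpd (3.33), Polr3d (0.94), Polr3e (1.07), Plk1 (2.16) and Plk3 (3.34) among those that rose, and no red point is filled.

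Genes of fast transcriptional responses moved beside the members. Of 25 immediate-early genes, 22 rose with anti-GBM disease, where 19.4% of tested genes did (median of the 25 log2 fold changes 1.504, of all tested genes -0.01), among them Maff (3.10 ± 0.21) and Klf6 (1.62 ± 0.15). Of 14 genes induced by glucocorticoids, 12 rose (median 1.72), among them Lcn2 (6.75 ± 0.70) and Cdkn1a (3.02 ± 0.35). Lists overlap, with Dusp1 in both of these and Lcn2 also in the acute-phase list below. The study names Lcn2 as a marker of renal injury. What raised the genes of this list was not tested. With FGF23 in anti-GBM disease 0 of either list passed. There, 13 of the 14 glucocorticoid-induced genes were below 0 (median -0.54, all tested genes 0.00), with Mt2 at -1.11 ± 0.32 (adjusted p = 0.269) and Sgk1 at -1.09 ± 0.36 (adjusted p = 0.313). Without NTS16 the 14 were below 0 (median -1.04, all tested genes 0.00), with Mt2 at -1.42 ± 0.36 (adjusted p = 0.138), Sgk1 at -1.60 ± 0.36 (adjusted p = 0.0930) and the clock gene Per1 called at -1.65 ± 0.28 (adjusted p = 0.0227). Of the immediate-early genes, Nr4a3 (-3.04 ± 0.32, adjusted p = 0.00154) and Klf2 (-0.86 ± 0.14, adjusted p = 0.0227) were then called.

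The mouse that stood apart in the members did so in that list. The mean log2 CPM of the 14 genes was 6.68, 6.74, 7.18 and 7.13 in anti-GBM mice with vehicle and 6.22 in NTS13, 5.82 in NTS14 and 6.90 in NTS16. In healthy mice it was 4.74 to 5.06 with vehicle or FGF23. For the 25 immediate-early genes the mean was 4.04 to 4.86 with vehicle in disease, and 4.23, 3.69 and 4.73 in the 3 mice with FGF23, so that NTS13 lay within the vehicle range there. In Adriamycin mice the mean of the glucocorticoid list was 5.68, 5.65, 5.97 and 5.68 with vehicle (Ad5 to Ad8). With FGF23 (Ad13 to Ad16) it was 5.82, 6.31, 6.01 and 5.84, so that the groups overlapped through Ad7. Per1 stood at 128 to 146 CPM with vehicle and at 166 to 199 CPM with FGF23 (1.65% of genes higher without overlap). Sgk1 stood at 132 to 190 CPM and 166 to 451 CPM, and Mt2 at 23.3 to 31.5 CPM and 8.23 to 30.2 CPM. The immediate-early mean was 2.45, 2.91, 3.22 and 3.75 in Adriamycin mice Ad5 to Ad8 with vehicle and 2.66, 3.06, 3.39 and 4.07 in Ad13 to Ad16 with FGF23. In healthy BALB/c mice it was 2.51, 2.88, 3.31 and 3.51 with vehicle (Ad1 to Ad4) and 2.65, 2.95, 3.11 and 3.39 with FGF23 (Ad9 to Ad12). It thus rose with the mouse number within each group of this experiment. The glucocorticoid mean did so only in healthy mice with vehicle. No label gives the order in which mice were handled or ties a mouse of one group to a mouse of another. The part of hormone state or handling in the 9 genes was not tested.

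Of 10 tested acute-phase and cytokine genes associated with C/EBP-beta, 7 rose with anti-GBM disease, among them Cxcl1 (5.42 ± 0.49), a chemokine for neutrophils, and the acute-phase gene Lcn2, and 0 fell, where 19.4% of all tested genes rose. With FGF23 in anti-GBM disease 0 of the 10 were called, nor were any without NTS16.

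Over the 22 libraries outside the Adriamycin experiment, each gene centred on the mean of its experiment, the 5 of 14257 genes most like Cebpb by Pearson's r of log2 CPM were Cebpd (0.97), Nr4a3 (0.97), Bdkrb2 (0.95), Dusp5 (0.95) and Plk3 (0.94). Cebpd and Nr4a3 encode transcription factors, Bdkrb2 a bradykinin receptor and Dusp5 a phosphatase of ERK. The member Arrdc2 ranked 31st (0.91), Noct 33rd (0.91), Polr3e 115th (0.87), Dclre1b 579th (0.80), Kcnk5 2030th (0.64) and Slc25a33 3192nd (0.51). These libraries share disease, so r mostly follows the difference between healthy and anti-GBM mice. After centring on group means the order changed, with the kinase gene Pim3 (0.90) 1st, Cebpd (0.87) 2nd, Nr4a3 (0.87) 3rd and Nr4a1 (0.86) and Mafk (0.86) next. Plk3 (0.79) then ranked 23rd, Dusp5 (0.76) 33rd and Bdkrb2 (0.71) 63rd. Of the other members, r was 0.59 for Arrdc2 and Noct, 0.44 for Slc25a33, 0.35 for Dclre1b, 0.28 for Polr3e and 0.19 for Kcnk5. The values are descriptions over samples that share libraries and groups.

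Within groups of the anti-GBM experiment, 27 of the 28 pairs among the 8 genes other than Il22ra1 had a positive r over 14 mice (median 0.58), highest in Polr3e with Kcnk5 (0.88). Without NTS16, 19 of the 28 were positive over 13 mice (median 0.20). In the Adriamycin experiment 22 of the 28 were positive over 16 mice, with a median of 0.17. In the 8 slice cultures 17 of the 28 were positive (median 0.33), and Cebpb with Noct (0.96) and Cebpb with Plk3 (0.93) were the highest. These values are descriptions over libraries of 1 experiment and the difference between experiments was not tested.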

How the data were processed

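The authors deposited raw read counts per Ensembl gene for 38 libraries, aligned with STAR 2.7.9a to GRCm38 and counted with featureCounts 1.5.1. The settings for strand and for reads with several matches are not given in the sources used here, so reads shared with overlapping genes could be split or lost. Mouse columns were assigned to groups through the headings of the study's supplementary count tables, which name groups in the words of the labels. One column headed NTS4 a second time is called NTS14, as it is there. Which labelled replicate a mouse column is was not worked out.

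Counts were fitted in R 4.3.3 with edgeR 4.0.16 (glmQLFit, glmQLFTest), separately for each experiment, with TMM scaling and filterByExpr at a minimum count of 10. P-values were adjusted by Benjamini and Hochberg over all genes tested in a comparison and called below 0.05. The standard error is the absolute log2 fold change divided by the square root of F. P-values measure the spread between single mice, and in slices between cultures that may share mice. Correlations used log2 CPM with a prior count of 2. Each library counted as 1 sample. Counts of the most alike pair of libraries of a group differed by more than sampling noise (chi-square over degrees of freedom 2.12). That pair was FGF23 slice cultures 2 and 4, followed by vehicle cultures 1 and 3 (3.09), and the most alike mice were at 6.45. Such values cannot show whether cultures come from separate mice. The steps were tested on simulated data.

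The members and the lists of relatives were chosen with earlier results of these data known. Beside the members, the text names the called genes of the lists, or the 2 with the smallest p in each direction where over 4 were called, and the 5 genes most correlated with Cebpb. Cebpa, Cebpg, Il10rb, Il22, Polr1d, Sgk1 and Mt2 were named after their values were seen. All 192 symbols of the lists were matched. Alternatives were RLE factors, DESeq2 1.42.0, other count filters, a fold change limit, fits of only the groups compared, each library left out, and a replicate block in slices. List and correlation values without mouse NTS16 were added after seeing the data, as were the Adriamycin values of Per1, Sgk1 and Mt2.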

Additional observations from a re-analysis of the deposited data

Results flagged for a closer look

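In 6 genes, each of the 3 anti-GBM mice with FGF23 lay below the mean of the vehicle mice, while each of the 4 Adriamycin mice with FGF23 lay above the mean of theirs. The log2 fold change in anti-GBM disease was -0.70 for Cebpb, -0.34 for Dclre1b, -0.47 for Slc25a33, -0.58 for Kcnk5, -1.14 for Plk3 and -1.28 for Noct, and the Adriamycin values were 1.46, 0.56, 0.64, 0.95, 0.85 and 1.41. In Noct and Kcnk5 the highest anti-GBM mouse with FGF23 (76.2 and 259 CPM) lay above the vehicle median (74.9 and 257 CPM). In Cebpb, Dclre1b, Slc25a33 and Plk3 it lay below the median. The share of all tested genes that meet this rule was not counted. The difference between the experiments was not tested, and the Adriamycin side was used to choose the genes.

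By Dixon's test, 3 of 72 groups of 4 libraries held a library far from the others, where chance gives about 1 in 20. These were Dclre1b at 11.4 CPM in healthy BALB/c mouse Ad12 with FGF23, Il22ra1 at 3.37 CPM in mouse Ad10 of the same group, and Plk3 at 53.0 CPM in FGF23 slice culture 1. Groups of 3 were not tested, so mouse NTS16 was not examined in this way.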

How the results depend on the processing

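With another scaling, tool, count filter or fold change limit, or with only the groups compared, the number of the 9 genes called stayed within 1.5 times its value in each comparison. Leaving out each library in turn gave 0 to 2 of the 9 called for FGF23 in anti-GBM disease, 0 to 1 for the interaction, 8 to 9 for disease with vehicle (Slc25a33 joined without NTS7), 3 to 6 for disease with FGF23 (3 without NTS16, 6 without NTS5) and 0 for FGF23 in healthy C57BL/6 mice and in slices. For disease with FGF23, Polr3e was lost without NTS10, NTS11 or NTS16 and Noct without NTS16, and Arrdc2 was gained without NTS5 or NTS14 and with DESeq2 (adjusted p = 0.0301) or no filter (adjusted p = 0.0300). Requiring an absolute log2 fold change above 1 ended the calls of Dclre1b and Kcnk5 for disease with vehicle and of Polr3e for disease with FGF23.

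Values near 0 changed sign. Slc25a33 with FGF23 in healthy C57BL/6 mice moved from -0.01 to 0.0117 with RLE factors, 0.0113 with DESeq2, 0.0133 with no filter, 0.0173 with 10 counts in every library and 0.0167 with only the groups compared, and the cause was not tested. Over the fits that left out 1 library, the log2 fold changes in healthy C57BL/6 mice spanned -0.19 to 0.13 for Slc25a33, -0.0093 to 0.17 for Polr3e, -0.33 to 0.090 for Kcnk5 and -0.11 to 0.092 for Il22ra1. Il22ra1 spanned -0.015 to 0.62 with FGF23 in anti-GBM disease and -0.038 to 0.62 in the interaction, and Slc25a33 -0.32 to 0.16 for disease with FGF23. In slices Cebpb spanned -0.12 to 0.21, Polr3e -0.046 to 0.093 and Kcnk5 -0.21 to 0.030.

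Over all genes, the number called for FGF23 in anti-GBM disease was 38, 161 with DESeq2, 60 with no filter, 25 with the fold change limit, 12 with only the groups compared and 12 (without NTS13) to 49 (without NTS16) with 1 library left out. For the interaction it was 5, 3 with RLE factors, 48 with DESeq2, 29 with no filter and 0 to 14 with 1 library left out. For disease with vehicle it was 6304 and 1554 with the fold change limit, and for disease with FGF23 4310 and 1444. In slices it was 0, with 3 by DESeq2 and 2 with no filter.

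In slices, same-numbered vehicle and FGF23 cultures correlated at 0.107, 0.105, -0.105 and 0.112 in their deviations from the group means. Cultures of different numbers correlated at -0.161 to 0.124. With so few cultures these values cannot decide whether the numbers pair the cultures, and no source states it. The main test used no pairing, and a replicate block called 0 of the 8 genes tested. In the mouse experiments no pairing was used. The study allocated mice to FGF23 or vehicle at random, and no label ties a mouse of one group to a mouse of another.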
